A study of Mus musculus with 16 samples.

Results

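The subject is a set of 33 mouse genes of glucose use in heart muscle: glucose transporters, the enzymes of glycolysis and of lactate exchange, the enzymes that make and consume the regulator fructose 2,6-bisphosphate, and the enzymes that store and mobilise glycogen. The members were taken by gene symbol from a list of such genes that was drawn up with earlier results of these data known. The rule itself uses no measured value. All 33 were found among the 53764 genes of the count table. Of these, 32 had enough counts to be tested. The other member, Aldoc, the brain type of aldolase, had 0 to 7 counts per library.

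The samples were left ventricles of male C57BL/6J mice, a common inbred laboratory strain, with no genetic modification named. Feeding began at 8 weeks of age and went on for 4 months. One diet was a low-fat control (CD). The other was rich in fat and sucrose (HFHS) and is used to model obesity and diabetes. Each diet was given plain or with ertugliflozin at 0.5 mg per g of diet, a drug that inhibits the sodium-glucose cotransporter SGLT2 in the kidney and so lets glucose pass into urine. The groups are therefore CD untreated, CD ertugliflozin, HFHS untreated and HFHS ertugliflozin, with 4 libraries each, 16 in all. The submitters chose these animals as representative of larger groups, so p-values measure the spread between the chosen animals. The labels do not say that equal replicate numbers tie animals of different groups to each other.

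Heart muscle burns mainly fatty acids and takes up glucose through GLUT4, which insulin and contraction bring to the cell surface, and GLUT1, which is always there. Hexokinase traps the glucose. Phosphofructokinase then sets the pace of glycolysis under the control of fructose 2,6-bisphosphate, and enolase and pyruvate kinase complete the path to pyruvate. Lactate dehydrogenase links pyruvate and lactate, and the H subunit made from Ldhb prevails in heart. Glycogen is built on glycogenin from UDP-glucose and taken apart by phosphorylase. Many of these steps have a muscle isozyme and a more widely expressed one.

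Library totals were 14637669 to 21452212 counts. The 10 cardiomyocyte markers examined summed to between 80878 and 101018 CPM (counts scaled to library total and TMM factor). The labelled tissue's own markers were thus abundant. The sum of the atrial markers, of which 7 of 8 were tested, reached 1093 CPM in 1 CD untreated library and at most 206 CPM in the other groups. In bulk tissue a lower share of cells of a type and less RNA per cell cannot be told apart. The 33 members together took 15589 ± 714 CPM in CD untreated, 15919.9 ± 779 in CD ertugliflozin, 14904 ± 755 in HFHS untreated and 15203 ± 302 in HFHS ertugliflozin (mean ± SD, n = 4). These group ranges overlapped. The median within-group SD of log2 CPM was 0.10 over the 32 tested members and 0.14 over all 15841 genes tested, and 23 members lay below the latter. Weakly counted members such as Pfkfb1 (0.31) and Slc2a1 (0.22) lay above it. Members were not set against other genes of equal level.

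Per kilobase of transcript, the most abundant member was Aldoa, the muscle type of aldolase, with a mean of 1798 CPM per kilobase over 16 libraries. It was followed by Ldhb at 929.7 and Eno3, the muscle enolase, at 828. The muscle isozymes Pgam2 (phosphoglycerate mutase), Pygm (glycogen phosphorylase) and Pfkm (phosphofructokinase) lay at 536, 507 and 477 CPM per kilobase, near Pkm (pyruvate kinase) at 534 and Tpi1 (triosephosphate isomerase) at 470.2. Among the transporters Slc2a4, which encodes GLUT4, stood at 161, Slc2a8 (GLUT8) at 7.87, Slc2a1 (GLUT1) at 4.63, Slc2a12 (GLUT12) at 2.30 and Slc2a3 (GLUT3) at 0.687 CPM per kilobase. Of the 4 PFKFB genes, whose enzymes make and break down fructose 2,6-bisphosphate, Pfkfb2, the cardiac form, was the most abundant at 20.1, followed by Pfkfb1 at 8.59, Pfkfb3 at 2.83 and Pfkfb4 at 1.35 CPM per kilobase. The glycogen genes ran from Pygm down to Pygb at 317, Ugp2 at 165, Gyg at 95.4, Gys1 at 46.0 and Gbe1 at 28.4 CPM per kilobase.

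Levels of some members are uncertain because of near copies elsewhere in the genome. In Gapdh, the glyceraldehyde-3-phosphate dehydrogenase that sits between abundant neighbours in the pathway, 82.5% of all 50-base stretches of the transcript also occur in another annotated gene, and 222 genes hold such a stretch. It was counted at only 6.93 CPM per kilobase, and at 7.51 to 13.3 CPM over libraries. The share was 72.2% for Eno1, mostly with Eno1b, 68.0% for Pgk1, mostly with Pgk1-rs7, and 41.5% for Pgam1, and these genes stood at 25.7, 22.3 and 4.83 CPM per kilobase. Pkm shared 34.4%, Ldhb 27.0%, Gpi1 25.3%, Pfkfb2 25.1%, Ldha and Pfkp 17.1% each, and Aldoa 13.9%, while the remaining 22 members shared 8.69% or less. Slc2a4, Hk1, Hk2, Pfkm, Eno3, Pgam2 and Gyg shared none. How reads that map to several places were counted is not given in the sources used here, so the levels and changes of Gapdh, Eno1, Pgk1 and Pgam1 in particular may not stand for these genes alone.

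**Figure D1:**
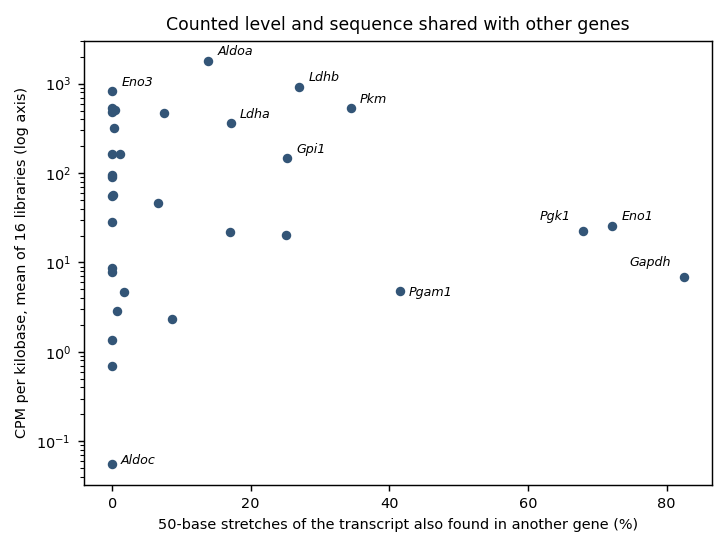
Mean level of each of the 33 members over 16 libraries, as CPM per kilobase on a log axis, against the share of 50-base stretches of its main transcript found in another annotated gene. Gapdh, Eno1, Pgk1 and Pgam1, the 4 members that share 41.5% or more of their stretches, all lie at or below 25.7 CPM per kilobase.

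The first question was what the HFHS diet did without drug, from 4 HFHS untreated against 4 CD untreated libraries. Of 32 tested members, 3 fell and 1 rose at an adjusted p under 0.05 in edgeR's quasi-likelihood test, 12.5% of members, against 2.06% of all 15841 genes tested (1.45% higher and 0.619% lower). Those that fell were Pfkfb2, Eno3 and Ldhb, and the one that rose was Pfkl, the liver type of phosphofructokinase. With ertugliflozin in both diets, from the other 8 libraries, 7 members fell and 1 rose, 25% of members, against 3.69% of all genes (2.15% higher and 1.53% lower). Pfkfb2, Eno3, Ldhb and Pfkl were again among them, joined by Slc2a4, Slc2a1, Pgk1 and Gyg.

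Averaged over both drug arms, a comparison of 8 HFHS with 8 CD libraries that reuses those of the preceding 2 comparisons, 11 members fell and 3 rose. That is 43.75% of members, against 11.6% of all genes (6.59% higher and 5.01% lower). In this average 25 of 32 members were lower on HFHS and 7 higher, with a median log2 fold change of -0.08 over members and -0.01 over all genes. In the separate comparisons 24 of 32 were lower in each, with medians of -0.07 without and -0.08 with drug, where all genes had -0.00 and -0.01. The changes were modest. Mean log2 fold changes of the members ran from -0.46 for Slc2a1 to 0.30 for Pfkl.

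**Figure D2:**
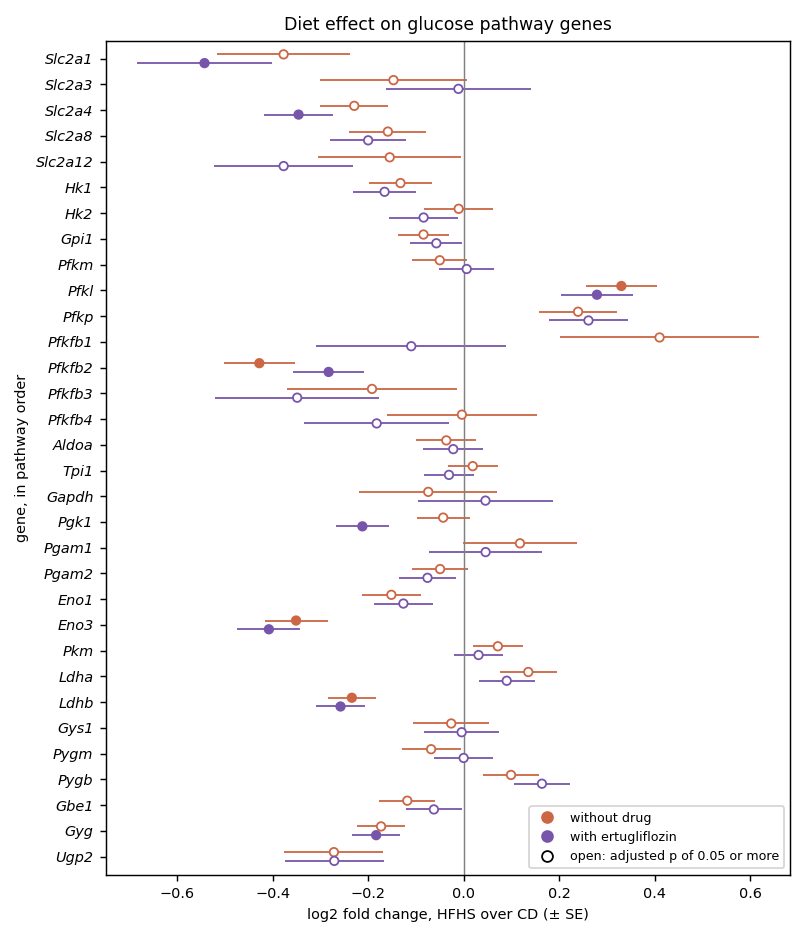
Log2 fold change (HFHS over CD) with its SE for the 32 tested members, from top to bottom in pathway order, without drug and with ertugliflozin. Filled points have an adjusted p under 0.05 in edgeR (4 members without drug, 8 with drug). Pfkl and Pfkp lie to the right in both drug arms, while Slc2a1, Slc2a4, Pfkfb2, Eno3, Ldhb, Gyg and Ugp2 lie to the left.

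Among the glucose transporters, Slc2a4 fell on HFHS. GLUT4 is the insulin-responsive transporter and by far the most abundant of the 5 here per kilobase. Slc2a4 was at 441, 409, 419.9 and 495 CPM in the CD untreated libraries and at 439, 426, 436 and 519 CPM in CD ertugliflozin. In HFHS untreated it was at 332, 381, 396 and 397 CPM and in HFHS ertugliflozin at 362, 363, 344 and 363 CPM. All 8 HFHS libraries lay below all 8 CD libraries. In the mean diet effect it fell by 18.1% (log2 fold change -0.29 ± 0.05, SE, edgeR adjusted p = 0.00123), and with drug the log2 fold change was -0.35 ± 0.07 (edgeR adjusted p = 0.0102). Without drug it was -0.23 ± 0.07 and did not pass (edgeR adjusted p = 0.103).

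Slc2a1, the gene of the basal transporter GLUT1, showed the largest fall of any member in the average. Its CPM values were 16.4, 16.7, 16.2 and 23.4 in CD untreated, 13.8, 20.4, 14.8 and 17.8 in CD ertugliflozin, 11.9, 14.2, 16.1 and 13.7 in HFHS untreated and 10.7, 10.6, 13.6 and 11.04 in HFHS ertugliflozin. The lowest CD ertugliflozin library, at 13.8 CPM, lay within the range of HFHS untreated, while within each drug arm the diets did not overlap. Slc2a1 fell by 27.3% in the mean diet effect (log2 fold change -0.46 ± 0.10, edgeR adjusted p = 0.00608) and fell by 31.4% with drug (-0.54 ± 0.14, edgeR adjusted p = 0.0401). Without drug the value was -0.38 ± 0.14 (edgeR adjusted p = 0.173). The call with drug was lost on leaving out any 1 of 9 libraries, namely CD untreated 2, CD ertugliflozin 2, 3 or 4, HFHS untreated 2 or 4, and HFHS ertugliflozin 1, 2 or 4, with adjusted p between 0.0507 and 0.130.

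Slc2a8, an intracellular transporter, stood at 17.1, 16.1, 17.5 and 17.6 CPM in CD untreated and 17.4, 17.0, 17.2 and 21.1 CPM in CD ertugliflozin. On HFHS it stood at 15.0, 16.1, 16.1 and 14.1 CPM untreated and 17.4, 15.2, 14.8 and 15.8 CPM with drug, so that the diets were apart without drug, by a narrow margin, and overlapped with it. It fell by 11.7% in the average (-0.18 ± 0.06, edgeR adjusted p = 0.0459), a call that held on leaving out only 4 of the 16 libraries one at a time (CD untreated 2, CD ertugliflozin 2 or 3, HFHS ertugliflozin 1), with adjusted p up to 0.10 without the others. The low-abundance transporters Slc2a12 (-0.27 ± 0.10, edgeR adjusted p = 0.107) and Slc2a3 (-0.08 ± 0.11, adjusted p = 0.686) did not pass.

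**Figure D3:**
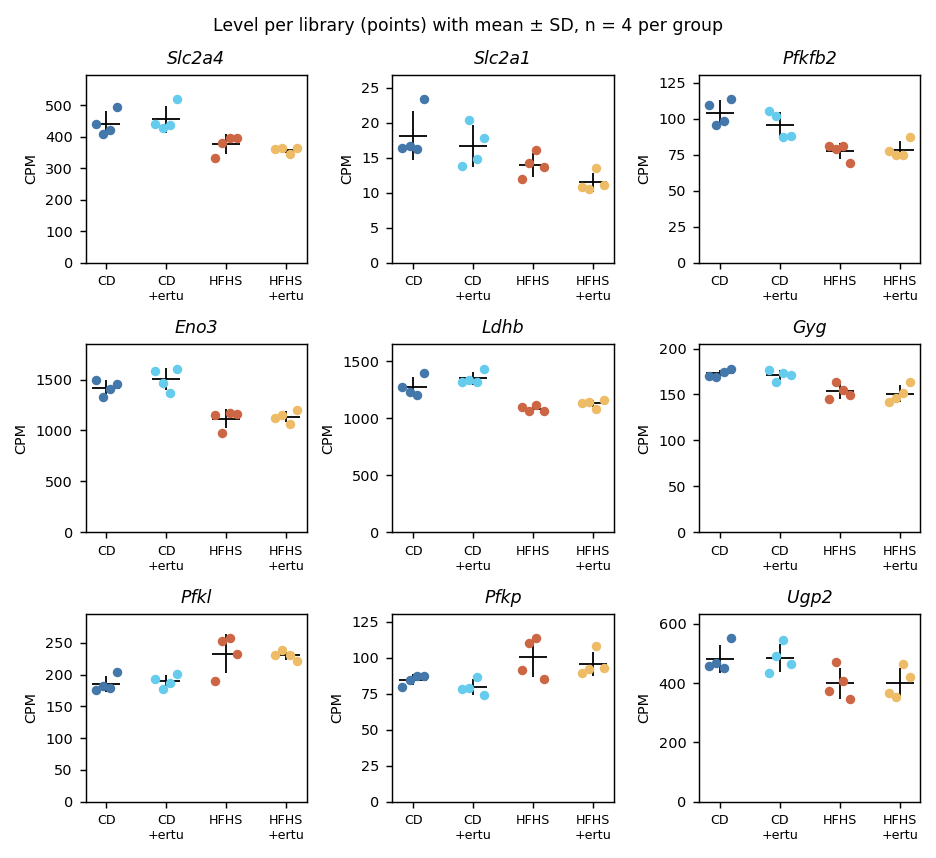
CPM of 9 members in each of 16 libraries (points) with group mean ± SD (black, n = 4), each axis starting at 0. CD, HFHS and +ertu stand for the diets and ertugliflozin. In Slc2a4, Pfkfb2, Eno3, Ldhb and Gyg every HFHS point lies below every CD point.

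Of the hexokinases, Hk1 fell slightly and Hk2, the insulin-regulated form, showed no passing change. Hk1 was at 236, 214, 222 and 227 CPM in CD untreated, 247, 196, 233 and 216 in CD ertugliflozin, 183, 214, 222 and 201 in HFHS untreated and 208, 196, 199 and 192 in HFHS ertugliflozin. These groups overlapped, CD ertugliflozin 2 being as low as the HFHS ertugliflozin libraries. In the average Hk1 fell by 9.83% (-0.15 ± 0.05, edgeR adjusted p = 0.0466), which stayed past the threshold without CD ertugliflozin 2 or without HFHS untreated 3 and was lost, at up to 0.0919, without any 1 of the other 14 libraries. Hk2 had a log2 fold change of -0.05 ± 0.05 (edgeR adjusted p = 0.600) and Gpi1, the glucose-6-phosphate isomerase, of -0.07 ± 0.04 (0.250).

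At the phosphofructokinase step both minor isozymes rose. Pfkl was at 176, 182, 179.6 and 204 CPM in CD untreated and 194, 178, 187 and 201 CPM in CD ertugliflozin, against 190.4, 253, 257 and 232 CPM in HFHS untreated and 231, 238, 230.1 and 222 CPM in HFHS ertugliflozin. HFHS untreated 1, at 190.4 CPM, lay among the CD libraries, and the other 7 HFHS libraries lay above all 8 CD libraries. Pfkl rose by 25.7% without drug (0.33 ± 0.07, edgeR adjusted p = 0.0268), by 21.3% with drug (0.28 ± 0.07, 0.0429) and by 23.5% in the average (0.30 ± 0.05, 0.00111). The average kept its call under every alternative run.

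The separate Pfkl calls were less firm. Without drug, edgeR adjusted p was 0.0574 to 0.0952 on leaving out CD untreated 1, 2 or 3 or HFHS untreated 2, 3 or 4, and with the adipocyte score as covariate, an alternative added after seeing the data, it was 0.183 at a log2 fold change of 0.24. Without HFHS untreated 1 it was 0.000689. With drug the call was lost without any 1 of CD untreated 2 or 3, CD ertugliflozin 1, 2 or 3, HFHS untreated 4 and HFHS ertugliflozin 1, 2, 3 or 4, with adjusted p up to 0.112.

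Pfkp, the platelet type of phosphofructokinase, was at 79.8, 84.2, 87.4 and 87.5 CPM in CD untreated and 78.4, 79.2, 86.7 and 73.9 CPM in CD ertugliflozin. It was at 91.7, 110.1, 113 and 85.1 CPM in HFHS untreated and 89.2, 92.1, 108 and 92.5 CPM in HFHS ertugliflozin. With drug every HFHS library was above every CD library, and without drug HFHS untreated 4 lay within the CD range. Pfkp rose by 19.0% in the average (0.25 ± 0.06, edgeR adjusted p = 0.00953). In the separate comparisons it had 0.24 ± 0.08 without drug (0.140) and 0.26 ± 0.08 with drug (0.0848), and neither passed. Pfkm, the muscle type, had -0.02 ± 0.04 in the average (edgeR adjusted p = 0.777).

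Pfkfb2 fell in both drug arms. Its enzyme makes fructose 2,6-bisphosphate in heart and is switched on by insulin and adrenergic signals. Pfkfb2 stood at 109.5, 96.0, 98.4 and 114 CPM in CD untreated and 106, 102, 87.4 and 88.4 CPM in CD ertugliflozin, and at 80.9, 79.0, 80.9 and 69.6 CPM in HFHS untreated and 77.6, 75.1, 74.9 and 87.2 CPM in HFHS ertugliflozin. Every HFHS library lay below every CD library, although the highest of the former, HFHS ertugliflozin 4, came within 1 CPM of the lowest CD ertugliflozin library. It fell by 25.7% without drug (-0.43 ± 0.08, edgeR adjusted p = 0.00619), fell by 17.8% with drug (-0.28 ± 0.07, 0.0407) and fell by 21.9% in the average (-0.36 ± 0.05, 0.000304). The call with drug was lost, at adjusted p of 0.0514 to 0.125, without any 1 of CD untreated 1, CD ertugliflozin 1 or 2, HFHS untreated 2, or HFHS ertugliflozin 1, 2 or 3.

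The other 3 genes of this family did not pass with diet, in the average or in either arm. Mean log2 fold changes were 0.15 ± 0.14 for Pfkfb1 (edgeR adjusted p = 0.551), -0.27 ± 0.12 for Pfkfb3 (0.173) and -0.09 ± 0.11 for Pfkfb4 (0.631). Aldoa (-0.03 ± 0.04), Tpi1 (-0.01 ± 0.04) and Gapdh (-0.01 ± 0.10) in the middle of the pathway had adjusted p of 0.720, 0.943 and 0.951 in edgeR. Further down the pathway Pgam1 had 0.08 ± 0.08 (edgeR adjusted p = 0.576), Pgam2 -0.06 ± 0.04 (0.359) and Pkm 0.05 ± 0.04 (0.403).

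Eno3 had the smallest adjusted p of all members in the average. It encodes the beta subunit of enolase, which replaces the alpha subunit of Eno1 as striated muscle matures. Eno3 was at 1493, 1332, 1406 and 1459 CPM in CD untreated and 1589, 1462, 1373 and 1609 CPM in CD ertugliflozin. On HFHS it was at 1154, 972, 1168 and 1166 CPM untreated and 1124, 1155, 1066 and 1202 CPM with drug. The lowest CD library exceeded the highest HFHS library. It fell by 21.6% without drug (-0.35 ± 0.07, edgeR adjusted p = 0.00865), fell by 24.7% with drug (-0.41 ± 0.07, 0.00162) and fell by 23.1% in the average (-0.38 ± 0.05, 5.04e-05). No single library decided any of these 3 calls.

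Eno1 and Pgk1, 2 members with many near copies, fell by less. Eno1 was at 51.1, 58.9, 54.0 and 55.0 CPM in CD untreated, 57.9, 51.4, 52.1 and 56.7 in CD ertugliflozin, 46.9, 54.7, 48.8 and 46.6 in HFHS untreated and 50.7, 48.9, 47.9 and 52.4 in HFHS ertugliflozin, with overlap in both arms. It fell by 9.19% in the average (-0.14 ± 0.04, edgeR adjusted p = 0.0439), and kept its call without CD untreated 1, CD ertugliflozin 2 or 3, HFHS untreated 2 or HFHS ertugliflozin 4, but not, at up to 0.0988, without any 1 of the other 11 libraries. The separate comparisons did not pass.

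Pgk1 encodes phosphoglycerate kinase, the first step of glycolysis that yields ATP. Its CPM values were 40.2, 39.2, 43.1 and 39.1 in CD untreated, 38.3, 41.0, 40.1 and 37.4 in HFHS untreated, 46.1, 42.3, 42.7 and 47.6 in CD ertugliflozin and 37.9, 36.8, 39.7 and 40.0 in HFHS ertugliflozin. The diets overlapped without drug and stood apart with it. Pgk1 fell by 13.7% with drug (-0.21 ± 0.05, edgeR adjusted p = 0.0360) and fell by 8.47% in the average (-0.13 ± 0.04, 0.0386), with -0.04 ± 0.06 (0.749) without drug. The difference between the diet effects is given with the interaction. Leaving out CD ertugliflozin 1 or 4 or any HFHS ertugliflozin library took the call with drug to 0.0520 to 0.116, and leaving out CD untreated 1 or 3, CD ertugliflozin 1 or 4, HFHS untreated 3 or 4 or HFHS ertugliflozin 1, 2 or 3 took that of the average to 0.0513 to 0.0855.

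Ldhb fell in both arms as well. CPM values of Ldhb were 1273, 1234, 1206 and 1398 in CD untreated, 1319, 1339.6, 1319.5 and 1437 in CD ertugliflozin, 1097, 1061, 1119.7 and 1067 in HFHS untreated and 1136, 1146, 1085 and 1161 in HFHS ertugliflozin, and all HFHS libraries were below all CD libraries. It fell by 15.0% without drug (-0.23 ± 0.05, edgeR adjusted p = 0.0210), fell by 16.4% with drug (-0.26 ± 0.05, 0.00705) and fell by 15.7% in the average (-0.25 ± 0.04, 0.000235). Without CD untreated 4, HFHS untreated 2 or HFHS untreated 4 the adjusted p of the comparison without drug was 0.0621, 0.0712 and 0.0685. Gm5514, a processed pseudogene that shares 27.0% of the 50-base stretches of Ldhb, was counted at a mean of 136 CPM on CD and 114 CPM on HFHS and had a log2 fold change of -0.25 ± 0.04 (edgeR adjusted p = 0.000562). Ldha, the M subunit, was higher on HFHS by 0.11 ± 0.04 and did not pass (0.0878).

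Because Eno3, Ldhb and Pfkfb2 were the members that fell in every diet comparison, the 250 bases before a start of each are shown, from RefSeq on GRCm38.p6, 5′ to 3′ on the gene's strand. Capitals mark ACGTG, the core of the hypoxia response element and also part of the E-box CACGTG, and CTA and TAG with any 4 bases between them, searched on both strands. The latter is looser than the usual site of the muscle factor MEF2, whose middle bases are A or T, and both stretches in Ldhb hold G or C there. A match is only a run of letters, not a site shown to be bound. Eno3 itself lies at chr11:70657202-70662513 on the plus strand, and Ldhb at chr6:142490249-142507957 and Pfkfb2 at chr1:130689182-130729253 on the minus strand (GRCm38). The window of Pfkfb2 lies inside that gene but in none of the annotated exons.
Eno3, chr11:70656926-70657175, plus strand: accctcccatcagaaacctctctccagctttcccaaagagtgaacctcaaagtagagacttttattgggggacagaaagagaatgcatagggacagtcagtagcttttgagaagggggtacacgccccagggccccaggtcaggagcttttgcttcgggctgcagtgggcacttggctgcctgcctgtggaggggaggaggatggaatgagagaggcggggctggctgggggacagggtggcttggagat
Ldhb, chr6:142507958-142508207, minus strand: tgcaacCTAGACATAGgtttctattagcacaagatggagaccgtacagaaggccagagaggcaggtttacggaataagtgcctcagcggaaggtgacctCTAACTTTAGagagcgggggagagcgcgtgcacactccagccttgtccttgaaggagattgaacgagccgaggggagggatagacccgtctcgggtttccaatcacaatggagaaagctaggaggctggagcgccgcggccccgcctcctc
Pfkfb2, chr1:130714577-130714826, minus strand, 1 of its 3 windows: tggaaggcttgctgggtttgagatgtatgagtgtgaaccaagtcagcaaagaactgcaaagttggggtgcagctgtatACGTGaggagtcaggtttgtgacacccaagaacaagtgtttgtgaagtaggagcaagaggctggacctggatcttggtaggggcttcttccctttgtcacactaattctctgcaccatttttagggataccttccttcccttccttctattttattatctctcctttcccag

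Of these windows the one of Ldhb held the looser CTA and TAG pattern at 2 places and that of Pfkfb2 held ACGTG, while the one of Eno3 held neither. Of the Pfkfb2 windows not shown, chr1:130715822-130716071 held CACGTG and chr1:130716049-130716298 held none of these patterns. Promoter windows were found for 31 of 33 members, 49 windows in all. ACGTG was in 17 of the 49 and in 16.6% of 32851 windows of the same length over all genes, CACGTG in 4 and 6.02%, and the looser pattern in 2 and 3.20%. The members with ACGTG in a window numbered 13 of 31. This count is per gene and cannot be set against the shares per window, since a member can have several windows, some of which overlap. A share per gene over all genes was not computed.

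Among the glycogen genes, Gyg fell. Glycogenin primes each glycogen particle by adding the first glucose units to itself. Gyg stood at 169.8, 169, 174 and 178 CPM in CD untreated and 177, 164, 173 and 171 CPM in CD ertugliflozin, and at 146, 163, 155 and 149 CPM in HFHS untreated and 142, 146, 152 and 163 CPM in HFHS ertugliflozin. All HFHS libraries were below all CD libraries, with HFHS untreated 2 and HFHS ertugliflozin 4 less than 1 CPM under the lowest CD library. It fell by 11.6% in the average (-0.18 ± 0.04, edgeR adjusted p = 0.00334) and fell by 11.9% with drug (-0.18 ± 0.05, 0.0483), while without drug it had -0.17 ± 0.05 (0.0811). With drug the call was kept without CD untreated 4 and without HFHS untreated 1, 2 or HFHS ertugliflozin 4 only, with adjusted p up to 0.177 for the 12 other libraries.

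Ugp2, which makes the UDP-glucose that glycogen synthase uses, was at 456, 468, 452 and 552 CPM in CD untreated and 436, 491, 547 and 464 CPM in CD ertugliflozin. Its HFHS values were 372, 470.3, 406 and 347 CPM untreated and 367, 353, 464 and 421 CPM with drug, and the highest of each set reached the CD range. Ugp2 fell by 17.2% in the average (-0.27 ± 0.07, edgeR adjusted p = 0.0238). Without CD ertugliflozin 3, HFHS untreated 4 or HFHS ertugliflozin 1 the adjusted p was 0.0506, 0.05005 and 0.0549.

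Pygb, the brain type of glycogen phosphorylase, rose slightly. It stood at 1265, 1149.5, 1097 and 1177 CPM in CD untreated, 1126, 1186, 1137 and 1315 in CD ertugliflozin, 1212, 1284, 1227 and 1299 in HFHS untreated and 1413, 1275, 1258 and 1392 in HFHS ertugliflozin. CD untreated 1 and CD ertugliflozin 4 were as high as HFHS libraries. In the average it rose by 9.54% (0.13 ± 0.04, edgeR adjusted p = 0.0481), a call kept without CD untreated 1, CD ertugliflozin 4, HFHS untreated 1 or HFHS ertugliflozin 3 and lost, at up to 0.104, without any 1 of the other 12 libraries. Pygm (-0.03 ± 0.04), Gys1, the muscle glycogen synthase (-0.02 ± 0.06), and Gbe1, the branching enzyme (-0.09 ± 0.04), had adjusted p of 0.662, 0.900 and 0.169 in edgeR.

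Shares of isozymes, each taken per kilobase among the isozymes of its step, are given as descriptions. Pfkm made up 86.7% to 88.4% of Pfkm, Pfkl and Pfkp together in the 8 CD libraries and 82.6% to 85.6% in the 8 HFHS libraries. Ldhb made up 73.0% to 75.7% of Ldha and Ldhb on CD and 66.9% to 72.2% on HFHS. These were the only 2 of 7 isozyme shares computed whose diets did not overlap. With exon-union lengths they were also apart, at 92.0% to 93.1% against 89.3% to 91.3% for Pfkm and at 80.8% to 82.9% against 75.9% to 80.2% for Ldhb.

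The remaining shares overlapped between diets. Pygm took 61.2% to 64.5% of the phosphorylases on CD and 58.6% to 62.9% on HFHS, and Hk2 took 58.7% to 63.6% of Hk1 and Hk2 on CD and 61.4% to 64.5% on HFHS. Slc2a4 made up 96.4% to 97.6% of Slc2a1 and Slc2a4 on CD and 96.9% to 97.8% on HFHS, as both transporters were lower. Eno3 was 95.8% to 97.4% of Eno1 and Eno3 over all libraries, and Pgam2 was 98.9% to 99.3% of its pair. These shares are uncertain, since Eno1 and Pgam1 have 72.2% and 41.5% of their 50-base stretches in other genes. To a lesser degree this holds for the shares of Ldhb and Pfkm, as Ldhb shares 27.0% and Ldha and Pfkp 17.1% each.

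**Figure D4:**
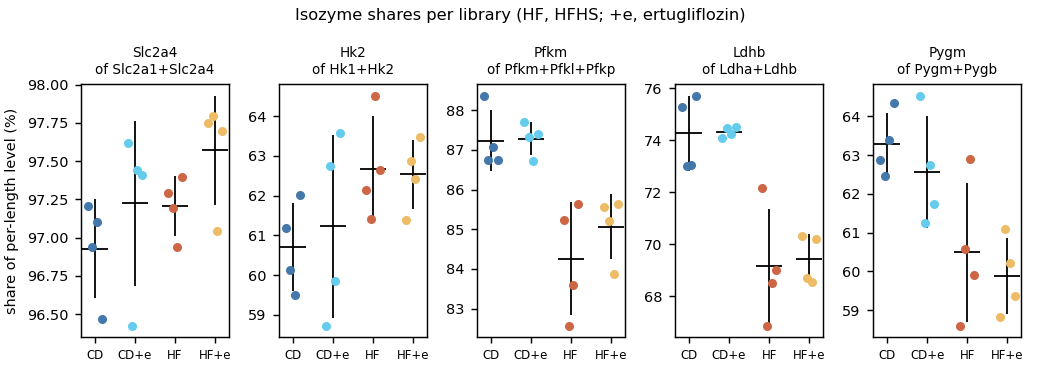
Share of one isozyme in the summed per-kilobase level of its pair or trio, in percent, for each of 16 libraries (points) with group mean ± SD (black, n = 4). The panels have separate axes that do not start at 0. HFHS libraries lie below CD libraries without overlap for Pfkm and Ldhb and with overlap for Pygm.

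Markers of other cell types differed between some groups. Of 12 valve and cartilage markers 9 were tested. Tested and untested together, they summed to 76.1 to 335 CPM in CD untreated, 32.97 to 119 in CD ertugliflozin, 34.5 to 68.7 in HFHS untreated and 42.7 to 112 in HFHS ertugliflozin. The sum of the atrial markers was 135 to 1093, 113 to 206, 107 to 142 and 95.7 to 137 CPM in the same order. All 10 endothelial markers were tested and summed to 1526 to 1687, 1592 to 1745, 1744 to 2072.5 and 1676 to 1878 CPM. Of these markers 2 rose without drug, 0 with drug and 2 in the average in edgeR, against 1.45%, 2.15% and 6.59% of all genes. All 10 markers were higher on HFHS without drug, with a median log2 fold change of 0.20. There 8 had an unadjusted p under 0.05 in edgeR, as 2608 of all 15841 genes had. With drug 8 were higher and 2 lower (median 0.08), and in the average 9 were higher and 1 lower (median 0.13).

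All 11 macrophage markers were lower on HFHS with drug, with a median log2 fold change of -0.38. Of them 0 passed there in edgeR, where 6 had an unadjusted p under 0.05, as 2937 of all 15841 genes had. DESeq2 called 4 there, voom and limma on the deposited log2 values 0, where 891, 845 and 573 of all genes passed. In the average 1 marker fell in edgeR, against 5.01% of all genes. The macrophage markers summed to 419.5 to 573 CPM in CD untreated, 444 to 627 in CD ertugliflozin, 423 to 489.9 in HFHS untreated and 374 to 452 in HFHS ertugliflozin. Of 10 fibroblast markers 1 rose without drug, 1 with drug and 2 in the average, against 1.45%, 2.15% and 6.59% of all genes. Without drug 5 fibroblast markers were higher and 5 lower, and both with drug and in the average 7 were higher and 3 lower. Of 4 tested of 8 adipocyte markers 1 rose in each diet comparison, against the same shares. Without drug 1 was higher and 3 lower (median log2 fold change -2.69). With drug 2 were higher and 2 lower (0.04), and in the average 1 was higher and 3 lower (-1.33). The adipocyte markers, tested and untested together, summed to 33.3 to 42.5, 27.7 to 38.1, 35.7 to 43.6 and 43.6 to 53.1 CPM in the same order of groups. Of 8 smooth muscle and pericyte markers 1 rose in the average, against 6.59% of all genes. No marker of these lists was at 0 in all 16 libraries, and the part of the macrophage, fibroblast and smooth muscle markers in the members' changes was not tested.

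With the valve and atrial scores as covariates 0 members passed without drug, 3 with drug and 9 in the average. Over all genes 0, 502 and 817 passed in that fit, against 327, 584 and 1837 without the covariates. In the average Hk1, Pfkp, Pgk1, Pygb and Ugp2 no longer passed. The falls without drug were not smaller in that fit (Pfkfb2 -0.55, Eno3 -0.44, Ldhb -0.33; edgeR adjusted p = 0.0903, 0.0994 and 0.0994), whereas Pfkl went to 0.20 (0.486). With the endothelial score as covariate, chosen after the data were seen, 1 member passed without drug, 7 with drug and 8 in the average, where 111, 794 and 1227 of all genes passed. Slc2a1, Slc2a8, Hk1, Pfkp, Pgk1 and Eno1 were the 6 that no longer passed in the average, with edgeR adjusted p of 0.0637 for Slc2a1. Without drug Eno3 had -0.31 (edgeR adjusted p = 0.142) and Ldhb -0.23 (0.156). In that fit Pfkl had 0.36 in the average (edgeR adjusted p = 0.00470) and Pfkp 0.18 (0.174). HFHS untreated 1 had the highest endothelial score of all libraries, 0.32 in log2 units from the mean of 16, and the lowest Pfkl of the HFHS libraries. That is 1 library, and the part of endothelial cells in the changes of Pfkl and Pfkp was not tested. With the adipocyte score as covariate 4, 8 and 13 members passed, where 98, 603 and 1408 of all genes did.

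Of the 10 cardiomyocyte markers, 8 were lower and 2 higher on HFHS in each diet comparison. In edgeR 5 fell with drug, 0 without drug and 5 in the average, against 1.53%, 0.619% and 5.01% of all genes. Without drug 5 of these markers had an unadjusted p under 0.05 in edgeR, as 2608 of all 15841 genes had. There DESeq2 and voom each passed 2 of these markers, and limma on the deposited log2 values passed 0 of these markers. Of all genes 602, 743 and 304 passed with these methods. Their median log2 fold change was -0.12 without drug, -0.17 with drug and -0.14 in the average, and they summed to 87694.7 to 101018 CPM on CD and 80878 to 94814 CPM on HFHS. Their part in the falls of members was not tested.

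Other genes around the pathway were examined in lists whose genes are not members, against the same 11.6% of all genes in the average. Of 7 genes of lactate and pyruvate transport, Slc16a7, which encodes the monocarboxylate transporter MCT2, fell without drug (log2 fold change -0.83 ± 0.17, edgeR adjusted p = 0.0199), with drug (-0.70 ± 0.17, 0.0306) and in the average (-0.77 ± 0.12, 0.000758). Mpc1, a subunit of the mitochondrial pyruvate carrier, fell in the average (-0.25 ± 0.05, edgeR adjusted p = 0.00383). The other 5 did not pass.

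Among further isozymes of glycolysis and gluconeogenesis, 1 rose in the average. This was Fbp2, the muscle fructose bisphosphatase that opposes phosphofructokinase, at 0.59 ± 0.09 on the log2 scale (edgeR adjusted p = 0.000551). Fbp2 rose in the separate comparisons too, by 0.55 ± 0.12 without drug (0.0347) and 0.63 ± 0.12 with drug (0.00925).

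Among 25 tested of 26 genes of glycogen regulation 4 rose and 2 fell in the average. Pgm5, a relative of phosphoglucomutase, rose (0.16 ± 0.04, edgeR adjusted p = 0.0104). Those that fell were Phkg2, a phosphorylase kinase subunit (-0.33 ± 0.08, edgeR adjusted p = 0.0106), and Ppp1ca, a catalytic subunit of protein phosphatase 1 (-0.15 ± 0.03, 0.00452). Of 10 genes of the shuttles that carry cytosolic NADH into mitochondria 3 fell, namely Slc25a13 (-0.23 ± 0.05, edgeR adjusted p = 0.00745), Gpd1l (-0.13 ± 0.03, 0.0167) and Got1 (-0.21 ± 0.06, 0.0187). Of 17 genes of transporter trafficking and glucose sensing 1 rose and 2 fell. The riser was Mlxip (0.29 ± 0.06, edgeR adjusted p = 0.00332) and 1 of those that fell was Mlxipl (-0.27 ± 0.08, 0.0449), which encode the glucose-sensing factors MondoA and ChREBP.

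Of 11 transcription factors known to act on glycolytic genes 3 rose, namely Mef2d (0.25 ± 0.04, edgeR adjusted p = 0.000767), Epas1 (0.18 ± 0.04, 0.00667) and Hif1a (0.29 ± 0.07, 0.0138). None of 16 genes of the pentose phosphate, hexosamine and polyol branches passed in edgeR in the average. DESeq2 called 1, voom 2 and limma on the deposited log2 values 0. An unadjusted p under 0.05 was found in edgeR for 2 of the 16 and for 4205 of all 15841 genes.

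The next question was what ertugliflozin did on each diet. On CD, 0 of 32 members passed at an adjusted p under 0.05 in edgeR, against 0.0189% of all genes. An unadjusted p under 0.05 was found for 2 of the 32 members and for 978 of all 15841 genes. On HFHS 0 of 32 passed, against 0% of all genes, with 0 members and 637 of all genes at an unadjusted p under 0.05. The mean drug effect over both diets gave 0 members (0% of all genes), with 2 members and 882 of all genes at an unadjusted p under 0.05. DESeq2, voom and limma on the deposited log2 values also called 0 members in each. The 2 drug comparisons use the untreated libraries of the diet comparisons as their controls.

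Median log2 fold changes of the members were 0.03 on CD and 0.01 on HFHS, where all genes had 0.00 and 0.00, and 20 and 18 of the 32 were higher with drug. Pfkfb1 had the largest estimate on CD. It was at 13.1, 9.11, 9.16 and 13.3 CPM in CD untreated and 13.4, 22.1, 12.6 and 21.99 CPM in CD ertugliflozin, 16.2, 12.6, 16.4 and 14.3 CPM in HFHS untreated and 19.8, 12.8, 16.4 and 15.7 CPM in HFHS ertugliflozin. CD ertugliflozin 2 and 4 stood above the other 14 libraries, and the remaining CD ertugliflozin libraries lay within or near the CD untreated range. The log2 fold change on CD was 0.65 ± 0.20 (edgeR adjusted p = 0.724) and on HFHS 0.13 ± 0.20 (1.00).

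Pfkfb3, the inducible form of the family, was at 12.3, 11.9, 12.96 and 13.1 CPM in CD untreated and 11.6, 20.9, 17.8 and 14.4 CPM in CD ertugliflozin, 12.5, 9.39, 12.2 and 10.1 CPM in HFHS untreated and 11.9, 10.01, 17.3 and 11.6 CPM in HFHS ertugliflozin. Values with drug were spread over a wider range than values without it on either diet, and overlapped them. The log2 fold change was 0.36 ± 0.17 on CD (edgeR adjusted p = 0.811) and 0.20 ± 0.18 on HFHS (1.00). Of the genes described above, Pgk1 had 0.15 ± 0.05 on CD (edgeR adjusted p = 0.762). On HFHS the members of smallest p were Slc2a1 with -0.29 ± 0.14, Pygb with 0.09 ± 0.06 and Ldhb with 0.06 ± 0.05 (edgeR adjusted p = 1.00 for each).

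**Figure D5:**
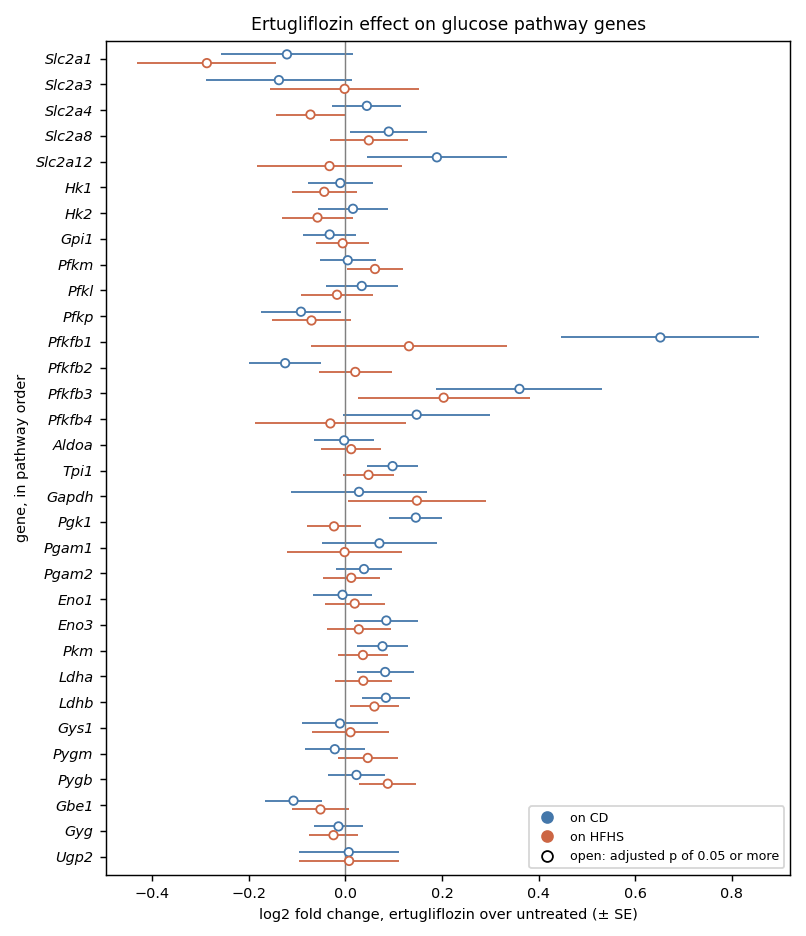
Log2 fold change (ertugliflozin over untreated) with its SE for the 32 tested members on CD and on HFHS, in pathway order. All points are open, since no member had an adjusted p under 0.05 in edgeR. The largest estimate is that of Pfkfb1 on CD, at 0.65.

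No member that had changed on HFHS passed the test for the drug on that diet. The log2 fold change with ertugliflozin on HFHS was -0.07 ± 0.07 for Slc2a4, 0.02 ± 0.08 for Pfkfb2, 0.03 ± 0.07 for Eno3 and -0.02 ± 0.05 for Gyg, each smaller than or close to its SE. For Pfkl it was -0.02 ± 0.07 and for Pfkp -0.07 ± 0.08. These estimates share the HFHS untreated libraries with the diet effect without drug. Of the 95 tested genes of the other pathway lists, 0 passed in edgeR on CD or on HFHS. DESeq2, voom and limma on the deposited log2 values called 0 of them. An unadjusted p under 0.05 was found for 5 of the 95 on each diet, and for 978 and 637 of all 15841 genes.

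Whether the drug effect differed between diets was tested as an interaction, which equals the difference between the 2 diet effects. In edgeR 0 of 32 members passed, against 0.0189% of all genes, and DESeq2, voom and limma on the deposited log2 values called 0. An unadjusted p under 0.05 was found for 676 of all genes and for 1 member. That member was Pgk1, at -0.17 ± 0.08 (drug effect on HFHS minus drug effect on CD, edgeR adjusted p = 1.00). For Slc2a4, Slc2a1 and Gyg, which passed with drug and not without, the interaction was -0.12 ± 0.10, -0.17 ± 0.20 and -0.01 ± 0.07, so a difference between their diet effects was not shown.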

How the data were processed

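Poly(A) RNA of 16 left ventricles was sequenced from strand-marked libraries, per the labels' protocols. Read counts per gene were deposited by the authors, who used STAR 2.6.0c and featureCounts of Subread 1.6.2 on mm10, per the submitters' processing notes, and regularised log2 values (rlog) were also deposited by the authors, with DESeq2 1.22.1 named in those notes. How strand and multiply mapped reads were treated is not given in the sources used here. Of 53764 rows of counts, 181 carried no gene symbol and held at most 0.0222% of counts.

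From the counts, genes were kept by filterByExpr, scaled by TMM and fitted with all 16 libraries in edgeR 4.0.16 (R 4.3.3) by the quasi-likelihood test, with Benjamini-Hochberg adjustment over 15841 genes and a threshold of 0.05. SE is the log2 fold change divided by the root of the F statistic. CPM per kilobase uses the main GENCODE M21 transcript. The pipeline was tested on simulated counts. Pairs of libraries of 1 group differed by 3.23 to 16.3 times the counting variance, so each library counts as 1 sample.

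Members were given with all library values where they passed in a comparison or were among the 3 of smallest p between single groups. Members and gene lists were chosen with earlier results of these data known. Alternatives were other scalings, filters, DESeq2 1.42.0, limma 3.58.1 (voom, and rlog as input), a replicate block, fits of only the groups compared, marker scores as covariates and each library left out. The endothelial and adipocyte covariates were added after seeing the data. One result of a gene list is not reported here.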

Additional observations from a re-analysis of the deposited data

Results flagged for a closer look

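Within each group of 4, libraries whose gap to the nearest of the others, relative to the group's range, passed Dixon's critical value were noted. Chance gives this in about 1 in 20 groups, and it occurred in 8 of 128 groups of member values checked. Slc2a1 in CD untreated 4 was at 23.4 CPM, above the other 3 libraries at 16.2 to 16.7, and in HFHS ertugliflozin 3 it was at 13.6 CPM against 10.6 to 11.04. Slc2a4 was at 519 CPM in CD ertugliflozin 4 (426 to 439 in the others) and at 344 CPM in HFHS ertugliflozin 3 (362 to 363). CD ertugliflozin 4 also stood high in Slc2a8, at 21.1 CPM against 17.0 to 17.4, and in Ldha, at 667 CPM against 621 to 625. Eno3 was at 972 CPM in HFHS untreated 2, below 1154 to 1168 in the others, and Ugp2 was at 552 CPM in CD untreated 4, above 452 to 468.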

How the results depend on the processing

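Against 4, 8 and 14 members called for diet without drug, with drug and on average, no direction of a called member reversed under any alternative. Of 740 values of called members 568 stayed past the threshold and 172 did not. Slc2a4, Pfkl, Pfkfb2, Eno3, Ldhb and Gyg kept their call on average under every alternative run, and Slc2a4, Eno3 and Ldhb did so with drug. No call without drug held under all. Without drug, fitting only the groups compared gave 2 members, the valve and atrial covariates 0 and the endothelial covariate 1, where 136, 0 and 111 of all genes passed against 327. With drug, no filter gave 5 and the valve and atrial covariates 3, with 523 and 502 of all genes against 584. On average, no filter gave 9, the valve and atrial covariates 9 and the endothelial covariate 8, with 1516, 817 and 1227 of all genes against 1837. The cause was not tested. Leaving out 1 library gave 2 to 5 members without drug, 3 to 8 with drug and 8 to 13 on average. Over all genes those fits passed 133 to 846, 287 to 844 and 1372 to 2530. The labels do not say that equal replicate numbers pair animals of different groups. Deviations of same-number libraries had a median r of 0.056, against -0.023 for other numbers, and 6 of 24 same-number pairs exceeded 0.1. A correlation this weak cannot decide whether animals were paired. The replicate block gave 4, 6 and 10 members, where 329, 550 and 1796 of all genes passed. The drug comparisons and the interaction gave 0 members under each alternative. With 4 animals a group, small differences may not have been detectable.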
